A study of Mus musculus with 4 samples.

Results

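The Wnt ligands, their receptors and co-receptors, the R-spondins and the secreted antagonists were examined in mouse septal nasal mucosa at 2 ages. Members were taken by symbol: every gene on the array whose probe accession mapped to a Wnt, Frizzled, Sfrp, Dkk, R-spondin, Lgr or *Lrp5*/*Lrp6* gene, or to *Wif1*, *Frzb*, *Axin2* or *Lef1*. This gave 51 of the 45604 genes measured, of which 22905 had a RefSeq symbol while the others carry only the array's own identifiers: 19 Wnt ligands, 10 Frizzled receptors, 2 co-receptors, 4 R-spondins, 3 Lgr receptors, 6 antagonists that bind Wnt proteins, 4 Dkk antagonists, *Axin2* with *Lef1*, and *Fzd10os*, an antisense transcript that the symbol rule also took in. The young adult group was C57BL/6J males of 8 weeks and the aged group C57BL/6J males of 16 months, both untreated as far as the labels tell, with 2 one-color arrays per age, each hybridized with RNA pooled from 5 mice. The methods count fewer mice per age for the gene analyses than separate pools would take, so pools of an age may share mice. The P values below therefore measure only the spread between these pools, which may be partly technical. Expression levels are intensities normalized between arrays, and they are compared between ages only for the same gene or the same list of genes, since probes differ in brightness.

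Wnt proteins are secreted, lipid-modified signals that bind Frizzled receptors together with the co-receptors Lrp5 or Lrp6, which stabilizes beta-catenin and lets it act with the Tcf and Lef factors on target genes; other Wnt proteins, such as Wnt5a, signal through Frizzled and Ror receptors without beta-catenin. R-spondins, bound by Lgr receptors, keep Frizzled receptors at the cell surface, whereas Sfrp proteins and Wif1 capture Wnt proteins and some Dkk proteins block the co-receptors. In the olfactory mucosa the pathway is known for its part in the renewal of olfactory neurons from basal cells, and *Lgr5* marks dividing basal cells there.

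The tissue label reads olfactory epithelium, while the treatment label names septal mucosa, which holds connective tissue and may hold adjoining bone and cartilage as well. *Omp*, the marker of mature olfactory receptor neurons, was bright on all 4 arrays. No spot was saturated, and between 63.1 and 76.8% of spots on an array were well above background, with 68.1 and 76.8% in young adult mice and 63.1 and 72.7% in aged mice. Young adult array 1 and aged array 1 shared a slide, and the other arrays each had a slide of their own. Although the mice are labelled male, *Xist* was well above background on all 4 arrays and *Ddx3y*, *Eif2s3y*, *Kdm5d* and *Uty*, genes of the Y chromosome, on none. A label that describes a lung experiment matches neither the titles nor the study and was not used.

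In limma, 4 members were called lower in the aged mice and 0 were called higher, at P below 0.05 and a false discovery rate (FDR) below 0.25. The 4 were the antagonist *Wif1*, the R-spondins *Rspo1* and *Rspo2*, and the ligand *Wnt5a*. They made up 7.84% of the members, and 2.33% of all genes were called lower and 1.65% higher (3.37 and 1.94% of the genes with a RefSeq symbol). By P below 0.05 alone, 15 members (29.4%) were lower, against 7.08% of all genes, and 1 member was higher, against 6.05% of all genes. The 1 higher was *Lgr5*. For 31 members both aged arrays were lower than either young adult array (60.8%, against 21.8% of all genes), for 6 both were higher (24.2% of all genes), and for 14 the ages overlapped. The log2 fold change was below 0 for 42 members (82.4%, against 48.5% of all genes and 49.3% of those with a symbol). The median was -0.16, where the median over all genes was 0.01. It was -0.15 without young adult array 1, -0.27 without young adult array 2, -0.16 without aged array 1 and -0.26 without aged array 2.

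On all 4 arrays 35 members were well above background, on none 6, and on some 10. Among the 35, 3 were called lower (8.57%, against 3.07% of all genes as bright) and 0 higher (2.11% of those genes). Of the 35, 29 had a log2 fold change below 0 (82.9%, against 46% of those genes), and 24 had both aged values under both young adult values (68.6%, against 25.6%). Their median log2 fold change was -0.15, beside 0.02 for all genes of that brightness. In RNA from whole mucosa, fewer cells of a type and less RNA per cell cannot be told apart.

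**Figure D1:**
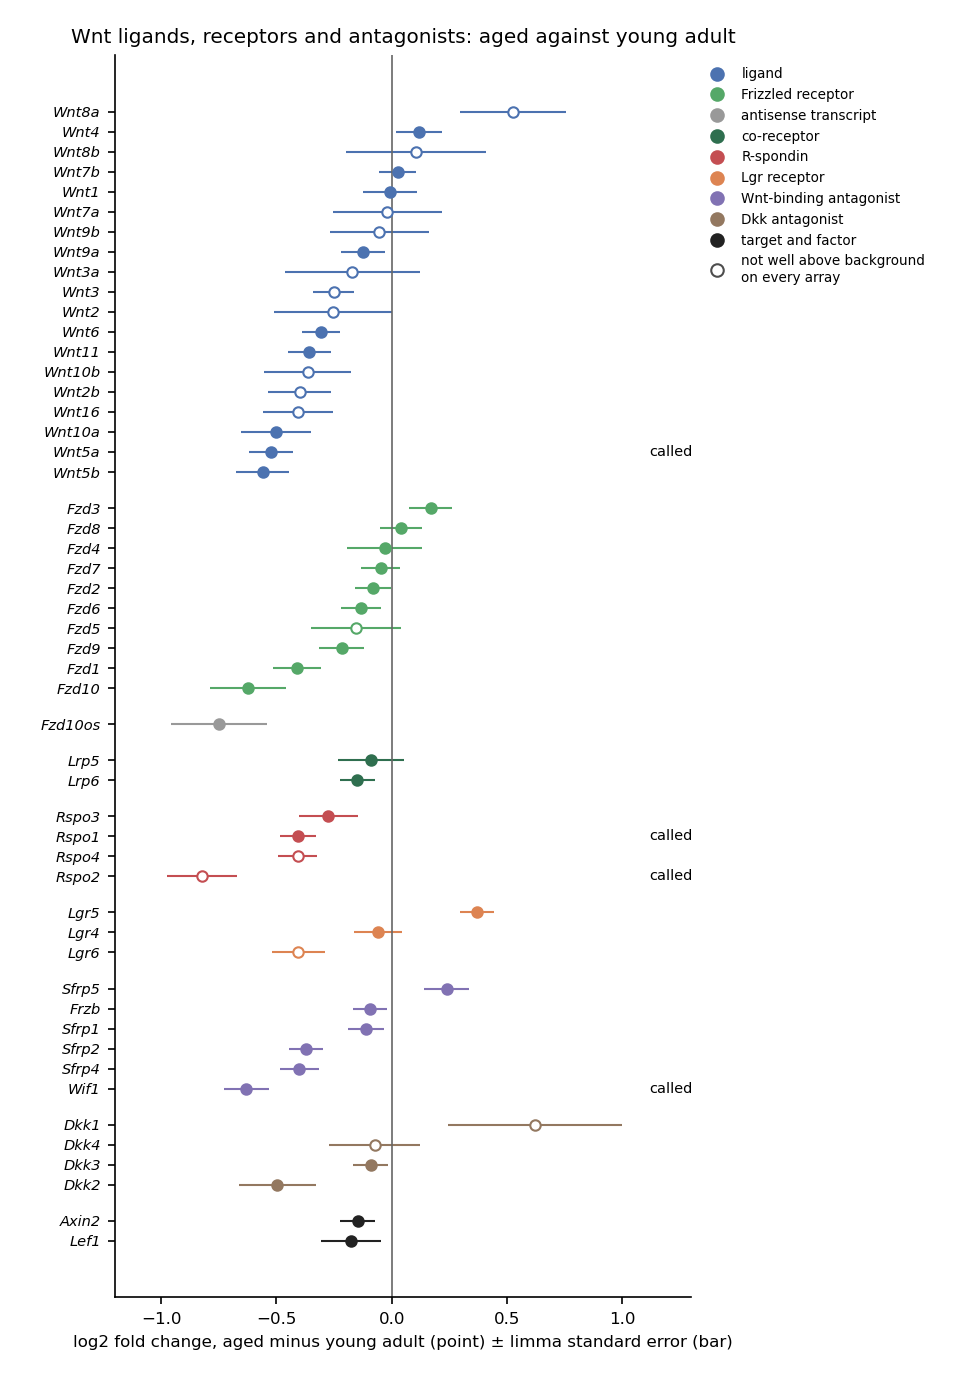
Log2 fold change of each of the 51 genes, aged minus young adult (x axis; points, limma estimates; bars, limma standard errors; 2 arrays per age), ordered by role, with open circles for genes not well above background on every array. Of the 51 points 42 lie below 0, and the 4 called genes are *Wnt5a*, *Rspo1*, *Rspo2* and *Wif1*.

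The calls stood close to the threshold. The FDR was 0.217 for *Wif1*, 0.242 for *Wnt5a*, 0.244 for *Rspo2* and 0.249 for *Rspo1*, and the smallest FDR of any gene was 0.0945. Each array was left out in turn, with the single array left in its age assumed to vary like the other age. No gene of the array was then called, members included, and the number of members lower at P below 0.05 was 7 without young adult array 1, 10 without young adult array 2, 4 without aged array 1 and 8 without aged array 2. Other settings called between 0 and 16 members lower, and scaling to the 75th percentile ended the calls of *Rspo1* and *Wnt5a*. An exact permutation test of a single gene with 2 arrays against 2 cannot give a two-sided P below 0.333, so none was run.

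Among the R-spondins, which enhance Wnt signals, all 4 genes had lower values on both aged arrays, against 21.8% of all genes. Of the 4, 2 were called lower, against 2.33% of all genes. *Rspo1* measured 3840.2 and 3996 in young adult mice and 2973 and 2939 in aged mice. It fell by 0.41 on the log2 scale (SE 0.08, FDR = 0.249 in limma), to 0.755 of the young adult level, and its aged arrays were well apart from the young adult pair. The difference on the shared slide was -0.37 for *Rspo1*. *Rspo2*, a closely related R-spondin, measured 41.7 and 43.7 in young adult mice and 21.4 and 27.1 in aged mice. Only 1 young adult array and no aged array was well above background for it, and its FDR was 0.244 in limma. With dim aged signals raised to the lowest signal well above background, *Rspo2* was 1.5-fold lower in aged mice under this background correction. This is not a strict lower bound, since 1 young adult array was dim too. With a normexp offset of 50 the log2 fold change of *Rspo2* was -0.32, and with the processed signal quantile normalized it was -1.44. The levels of *Rspo3* were 420.5 and 368.0 in young adult mice and 304.4 and 347.3 in aged mice, and it was not called (FDR = 0.490). The signal of *Rspo4* stayed near background throughout.

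The 3 Lgr receptors, which bind the R-spondins, were not called in either direction, where 2.33% of all genes were called lower and 1.65% higher. *Lgr5* measured 976.4 and 972.5 in young adult mice and 1251 and 1268 in aged mice, a ratio of 1.29. Both aged arrays were higher by more than the spread within either age, and the log2 fold change of 0.37 (SE 0.07) missed the call at FDR = 0.258. On the shared slide the log2 difference of *Lgr5* was 0.36, and in the other pair it was 0.38. *Lgr6* lay the other way, at 69.7 and 75.6 in young adult mice against 51.1 and 58.8 in aged mice (log2 fold change -0.40, FDR = 0.334), with 1 aged array not well above background. *Lgr4*, the most widely expressed of these receptors in other tissues, overlapped between the ages (log2 fold change -0.06).

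Of the antagonists that bind Wnt proteins, 1 of 6 was called lower and 0 higher, against 2.33 and 1.65% of all genes. The log2 fold change was below 0 for 5 of 6, against 48.5% of all genes. *Wif1*, a secreted inhibitor that binds Wnt proteins directly, measured 3509.7 and 3382 in young adult mice and 2348 and 2105 in aged mice. It fell by 0.63 on the log2 scale (SE 0.10, FDR = 0.217 in limma), and the ages were apart by several times the gap between arrays of one age. The aged level was 0.645 of the young adult level, and *Wif1* was the 1 member that also met the study's limits for a differentially expressed gene, a mean level of at least 100 and a fold change of at least 1.5. Of all genes, 1.15% met those limits on the lower side.

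The Sfrp proteins carry a Wnt-binding domain like that of the Frizzled receptors. *Sfrp2* measured 9379.6 and 9118 in young adult mice and 7091 and 7203 in aged mice (log2 fold change -0.37, FDR = 0.262). *Sfrp4* measured 2611 and 2618 against 2055 and 1908 (log2 fold change -0.40, FDR = 0.266). Neither was called, although in both the arrays of an age lay close together and the ages did not overlap. *Sfrp5* was the 1 gene of this group with a higher aged level, 1654 and 1721 against 1351 and 1514 in young adult mice (log2 fold change 0.24, FDR = 0.451). *Sfrp1* and *Frzb* had smaller differences, of -0.11 and -0.09 on the log2 scale, and that of *Frzb* turned to 0.02 with its brightest probe alone.

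**Figure D2:**
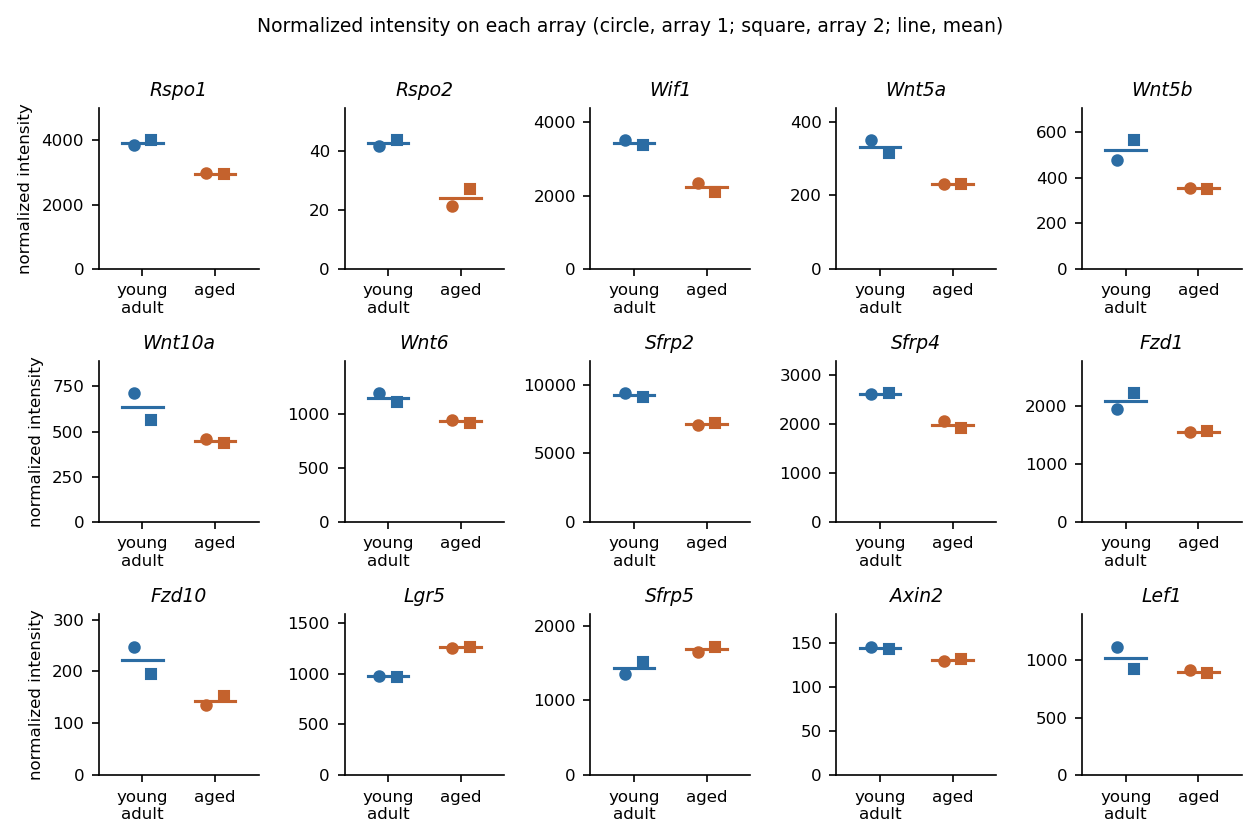
Normalized intensity (y axes, linear from 0) on each array for 15 of the genes, with the 2 young adult arrays (blue) and the 2 aged arrays (orange) as single points and the mean of each age as a line. The aged arrays of *Rspo1*, *Rspo2*, *Wif1* and *Wnt5a* lie below the young adult arrays, and those of *Lgr5* and *Sfrp5* lie above them.

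Among the 19 Wnt ligands, 1 was called lower and 0 higher, against 2.33 and 1.65% of all genes. The log2 fold change was below 0 for 15 ligands, against 48.5% of all genes. *Wnt5a*, the best known ligand of the beta-catenin-independent branch, measured 349.5 and 314.0 in young adult mice and 229.9 and 230.9 in aged mice. It fell by 0.52 on the log2 scale (SE 0.09, FDR = 0.242 in limma), with no overlap of the ages. This level is the log2 mean of 2 probes, which differed in brightness and lay at -0.45 and -0.60 on the log2 scale when taken singly. The dimmer of the 2 was not well above background on 1 aged array.

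*Wnt5b*, the nearest relative of *Wnt5a*, had the largest log2 fold change among the ligands well above background on all 4 arrays. Its levels were 478.6 and 563.0 in young adult mice and 354.9 and 349.2 in aged mice (log2 fold change -0.56, SE 0.12), and it was not called (FDR = 0.265). *Wnt11*, another ligand of that branch, measured 340.4 and 343.8 against 254.1 and 280.5 (log2 fold change -0.36, FDR = 0.309). For both genes the ages did not overlap. *Wnt4*, which acts in gland and kidney development, measured 5039.6 and 4889 in young adult mice and 5708 and 5077 in aged mice (log2 fold change 0.12, FDR = 0.672), the highest log2 fold change among the 9 ligands well above background throughout.

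Several Wnt genes are neighbours in the genome, and their values are given in pairs. *Wnt10a* measured 711.3 and 562.0 in young adult mice and 456.3 and 436.4 in aged mice (log2 fold change -0.50, FDR = 0.350). The gene next to it, *Wnt6*, measured 1194 and 1116 against 945.4 and 921.0 (log2 fold change -0.31, FDR = 0.321), so that neither was called and both had separate ages. The neighbours *Wnt3a* and *Wnt9a* had log2 fold changes of -0.17 and -0.12, neither called. *Wnt1* overlapped between the ages (log2 fold change -0.01), while its neighbour *Wnt10b* was dim, at 44.5 and 40.4 in young adult mice and 28.4 and 38.2 in aged mice. *Wnt10b* and *Wnt2b* were well above background on 1 young adult array and no aged array, and neither was called (FDR = 0.526 and 0.386).

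Of the remaining ligands, *Wnt7b*, a ligand of epithelia, overlapped between the ages, with 1473 and 1537 in young adult mice and 1503 and 1559.9 in aged mice. *Wnt3*, *Wnt7a*, *Wnt8a* and *Wnt8b* gave no signal well above background, so no fold change is given for them here. For *Wnt2*, *Wnt3a* and *Wnt16* the arrays with a signal well above background were 2 young adult and 1 aged, and for *Wnt9b* 1 of each age. *Wnt16*, which is known from bone and skin, was the 1 of these 4 whose ages did not overlap (log2 fold change -0.41, FDR = 0.412), and it was not called. Such a separation was found for 21.8% of all genes with the aged pair lower, and for 24.2% with the aged pair higher.

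The promoters of these genes were searched on both strands for the letters CTTTGAT and CTTTGTT, forms of the core to which Tcf and Lef factors bind. Other forms of that core were not searched. Windows of 250 bases before to 50 bases after a start site were at hand for 33 of the 51 members, 39 windows in all, from RefSeq on GRCm38.p6, and not for *Rspo2* or *Wnt5a*. The letters occurred in 5 of the 39 windows (12.8%), one each of *Dkk1*, *Fzd7*, *Wnt11*, *Wnt3* and *Wnt5b*, and in 9.33% of the 32851 windows of all genes. Shown are the windows of *Rspo1* (chr4:124986180-124986479, plus strand) and *Wif1* (chr10:121033754-121034053, plus strand), both called lower and both without the letters, and those of *Wnt11* (chr7:98834862-98835161, plus strand) and *Wnt5b* (chr6:119449337-119449636, minus strand), not called and with the letters in capitals, which in *Wnt11* are read on the opposite strand. Each runs 5′ to 3′ along its gene.
Rspo1: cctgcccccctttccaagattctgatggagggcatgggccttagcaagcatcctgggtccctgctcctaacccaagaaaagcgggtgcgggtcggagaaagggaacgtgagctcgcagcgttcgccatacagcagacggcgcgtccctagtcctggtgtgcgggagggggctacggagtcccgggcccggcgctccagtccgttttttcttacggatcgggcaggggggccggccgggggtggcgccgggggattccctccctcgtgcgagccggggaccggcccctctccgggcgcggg
Wif1: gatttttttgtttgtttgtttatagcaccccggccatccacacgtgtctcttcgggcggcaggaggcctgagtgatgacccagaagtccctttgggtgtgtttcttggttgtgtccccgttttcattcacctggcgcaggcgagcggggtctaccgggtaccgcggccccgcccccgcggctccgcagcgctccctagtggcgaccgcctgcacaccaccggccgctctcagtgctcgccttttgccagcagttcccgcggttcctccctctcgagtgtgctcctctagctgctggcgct
Wnt11: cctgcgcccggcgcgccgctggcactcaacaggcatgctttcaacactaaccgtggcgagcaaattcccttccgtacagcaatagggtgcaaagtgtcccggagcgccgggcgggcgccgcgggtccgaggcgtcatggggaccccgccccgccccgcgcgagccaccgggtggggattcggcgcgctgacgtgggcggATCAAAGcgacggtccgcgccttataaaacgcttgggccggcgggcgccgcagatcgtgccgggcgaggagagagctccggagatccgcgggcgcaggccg
Wnt5b: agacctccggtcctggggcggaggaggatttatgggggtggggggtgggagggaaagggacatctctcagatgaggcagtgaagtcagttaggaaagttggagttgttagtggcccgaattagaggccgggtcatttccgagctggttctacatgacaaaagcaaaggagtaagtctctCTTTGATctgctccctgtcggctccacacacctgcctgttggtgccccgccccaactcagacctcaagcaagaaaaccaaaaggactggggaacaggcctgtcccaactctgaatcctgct

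A match describes letters only, and its absence says that these letters are not in this window. The other windows of *Wnt11* and *Wnt5b* held no match.

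None of the 10 Frizzled receptors, which bind Wnt proteins at the cell surface, was called in either direction. The shares called over all genes were 2.33% lower and 1.65% higher. The log2 fold change was below 0 for 8 of them, against 48.5% of all genes. At P below 0.05 alone 2 were lower, *Fzd1* and *Fzd10*, against 7.08% of all genes. *Fzd1* measured 1945 and 2219 in young adult mice and 1544 and 1578 in aged mice (log2 fold change -0.41, SE 0.10, FDR = 0.306). *Fzd10* had the largest log2 fold change of these receptors, at 248.2 and 195.4 in young adult mice and 134.5 and 151.8 in aged mice (log2 fold change -0.62, SE 0.17, FDR = 0.314). Both receptors had separate ages, as did 3 others with lower aged levels (*Fzd2*, *Fzd6* and *Fzd9*, from -0.22 to -0.08) and *Fzd3*, which was higher (log2 fold change 0.17, FDR = 0.542). *Fzd3* is known for guiding axons. The ages overlapped for *Fzd4*, *Fzd5*, *Fzd7* and *Fzd8*. Of all genes, 21.8% had both aged arrays below both young adult arrays, and 24.2% had both above.

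*Fzd10os*, the antisense gene beside *Fzd10*, measured 144.0 and 203.1 in young adult mice and 97.7 and 105.9 in aged mice. Its log2 fold change was -0.75 (SE 0.21, FDR = 0.326), not called, and its ages were apart. The co-receptors *Lrp5* and *Lrp6* were not called either. *Lrp6* measured 1417 and 1414 in young adult mice and 1261 and 1293 in aged mice (log2 fold change -0.15, FDR = 0.518), and *Lrp5* overlapped between the ages (log2 fold change -0.09, FDR = 0.824).

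None of the 4 Dkk genes, some of whose products block the co-receptors, was called, and 0 had P below 0.05. The shares over all genes were 2.33% called lower and 1.65% called higher, and 7.08 and 6.05% at P below 0.05 alone. *Dkk2* had the largest log2 fold change of those measured on both arrays of an age, with 394.1 and 305.9 in young adult mice and 235.0 and 258.0 in aged mice (log2 fold change -0.50, FDR = 0.382). *Dkk3*, an outlying family member, measured 4018 and 4019.8 against 3741 and 3802 (log2 fold change -0.09, FDR = 0.657). *Dkk1* was well above background on 1 array of each age, and its aged arrays, at 93.7 and 48.4, lay far apart beside 41.7 and 45.9 in young adult mice. *Dkk4* was not well above background on any array.

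The pathway's common readout *Axin2*, a feedback inhibitor that beta-catenin switches on in many tissues, was not called. It measured 146.0 and 142.8 in young adult mice and 129.0 and 131.8 in aged mice (log2 fold change -0.15, SE 0.08, FDR = 0.524), with no overlap. With the processed signal quantile normalized, *Axin2* was called lower (log2 fold change -0.33, FDR = 0.183), the 1 of 18 recomputations that called it. The level of *Axin2* is the log2 mean of 2 probes, and the dimmer was not well above background on 1 aged array. *Lef1*, a nuclear partner of beta-catenin, measured 1119 and 925.2 against 914.6 and 884.2 (log2 fold change -0.18, SE 0.13, FDR = 0.627). Its young adult arrays differed from each other by more than the lower one differed from either aged array.

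The shared slide allowed a comparison of the ages without a difference in slide. Its arrays had a higher median local background, 67 in young adult and 63 in aged mice, than the other arrays, 32 and 39. Within it the median log2 difference of the 51 members was -0.32, and in the pair formed by the other 2 arrays it was -0.12, which is a description with 1 array per age. For *Wif1* the 2 pairs gave -0.58 and -0.68, for *Wnt5a* -0.60 and -0.44, and for *Rspo1* -0.37 and -0.44. Some members had opposite signs in the 2 pairs, among them *Wnt3a*, at -0.63 and 0.28, and *Lrp5*, at 0.02 and -0.20.

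**Figure D3:**
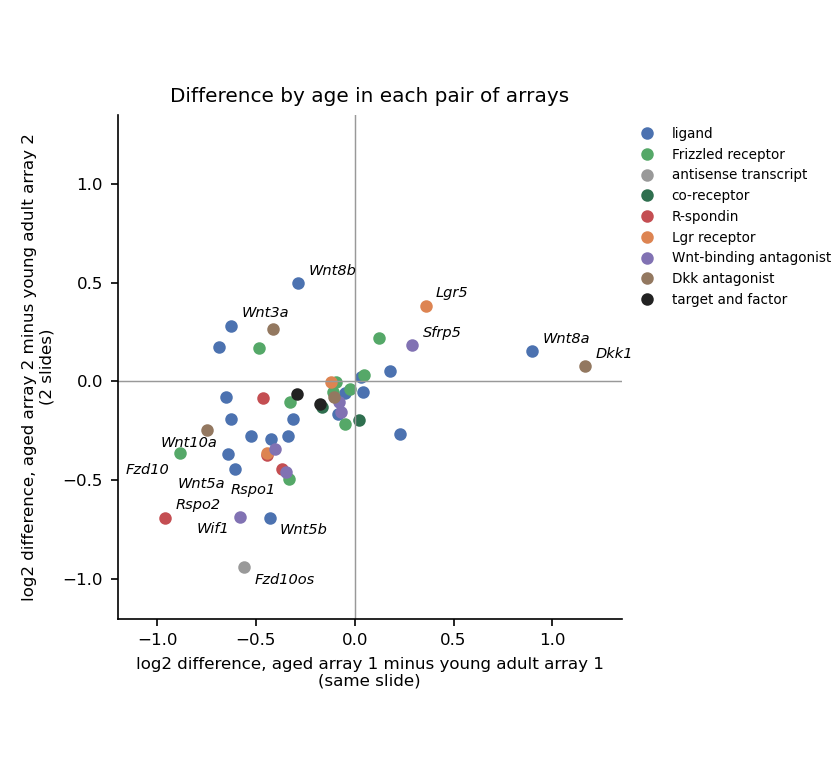
Log2 difference of each of the 51 genes on the slide that held both ages (x axis, aged array 1 minus young adult array 1) and in the other pair of arrays, which lay on 2 slides (y axis, aged array 2 minus young adult array 2), colored by role. *Wif1*, *Wnt5a*, *Rspo1* and *Rspo2* lie in the lower left, and *Lgr5* and *Sfrp5* in the upper right. *Wnt3a* and *Wnt8b* have opposite signs in the 2 pairs, and *Wnt8b* was not well above background on any array.

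Other genes of the pathway were read from 4 lists. Of all genes, 7.08% were lower and 6.05% higher at P below 0.05 alone, and 48.5% had a log2 fold change below 0. Of 24 genes on the receptor side (Wnt secretion, further receptors, co-factors and secreted modulators), 4 were called lower and 0 higher, against 2.33 and 1.65% of all genes. At P below 0.05 alone 9 were lower and 1 higher (*Sost*, not well above background), 19 had a log2 fold change below 0, and the median was -0.19. *Cthrc1*, a secreted co-factor of Wnt and Ror2, fell from 451.6 and 478.0 in young adult mice to 263.5 and 265.7 in aged mice (log2 fold change -0.81, FDR = 0.184). *Sostdc1*, a secreted antagonist of Wnt and BMP signals, fell by 0.68 on the log2 scale (FDR = 0.214). The receptor *Ptk7* fell by 0.46 (FDR = 0.243), and the glypican *Gpc3* by 0.42 (FDR = 0.242). *Wls* and *Porcn*, which every cell that secretes Wnt proteins needs, overlapped between the ages (log2 fold changes 0.04 and 0.01).

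Of 31 genes for the intracellular and nuclear steps, 0 were called in either direction in limma (0 lower and 0 higher at P below 0.05 alone), 13 had a log2 fold change below 0, and the median was 0.05. *Ctnnb1*, which encodes beta-catenin, measured 2158 and 2035 in young adult mice and 2136 and 2248 in aged mice (log2 fold change 0.06). Likewise 0 of the 19 genes of planar cell polarity and calcium signals were called (2 lower and 0 higher at P below 0.05 alone), with a median of -0.01. Of 18 genes known as transcriptional targets in other tissues, 4 were called lower and 0 higher, against 2.33 and 1.65% of all genes. At P below 0.05 alone 9 were lower and 1 higher, 15 had a log2 fold change below 0, and the median was -0.31. The 1 higher was *Ccn5*, a secreted matricellular protein, with a log2 fold change of 0.55 (FDR = 0.291). The 4 called were the homeobox gene *Msx1*, which fell by 0.89 (FDR = 0.184), the cell cycle gene *Ccnd2*, by 0.64 (FDR = 0.196), *Twist1*, a factor of mesenchymal cells, by 0.58 (FDR = 0.206), and *Tnfrsf19*, a receptor found on stem cells, by 0.50 (FDR = 0.217). All of these are controlled by other pathways as well.

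Markers of several cell types differed between the ages in the same samples. Of all genes, 2.33% were called lower and 1.65% higher, and 24.2% had both aged arrays above both young adult arrays. Osteoblast and osteocyte markers were called lower for 8 of 14 genes, and their summed levels were 44049 and 41655 in young adult mice and 22404 and 21721 in aged mice, with *Sost* not well above background on any array. Fibroblast markers were called lower for 6 of 12, with summed levels of 258089 and 233491 against 132967 and 125335, all well above background. Such sums follow the brightest genes of a list most. *Col1a2* measured 99626 and 90141 in young adult mice and 34475 and 31828 in aged mice, and *Bglap2*, an osteoblast marker, 23518 and 21117 against 11671 and 11049. The median log2 fold change was -0.50 for the fibroblast list and -0.75 for the osteoblast and osteocyte list. *Col1a1*, *Col1a2* and *Col3a1* were at 0.254, 0.350 and 0.255 of the young adult level. The fibroblast markers not called were *Pdgfrb*, *Mfap5*, *Pdgfra*, *Dcn*, *Fbln1* and *Thy1*, at 0.772, 0.811, 0.820, 0.878, 0.878 and 1.02. Cartilage markers were called lower for 3 of 14, with 8391 and 8340.4 against 5986 and 5964 and *Matn1* and *Matn3* not well above background. Ensheathing and Schwann cell markers were called lower for 6 of 10 (40131 and 41061 against 28277 and 29724), and endothelial markers for 5 of 10 (20719 and 20302 against 14037 and 14066). Counts called lower were 4 of 9 for smooth muscle and pericytes, 3 of 10 for macrophages, 4 of 12 for basal and progenitor cells and 1 of 10 for immature olfactory receptor neurons. Mature neuron markers were called higher for 1 of 12, with summed levels of 587395 and 578207 against 641515 and 649666 and higher values on both aged arrays for 12 of 12. Sustentacular markers were called higher for 1 of 9, and respiratory markers gave 1 higher and 1 lower of 8. The part of these cell types in the values of the Wnt genes was not tested.

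**Figure D4:**
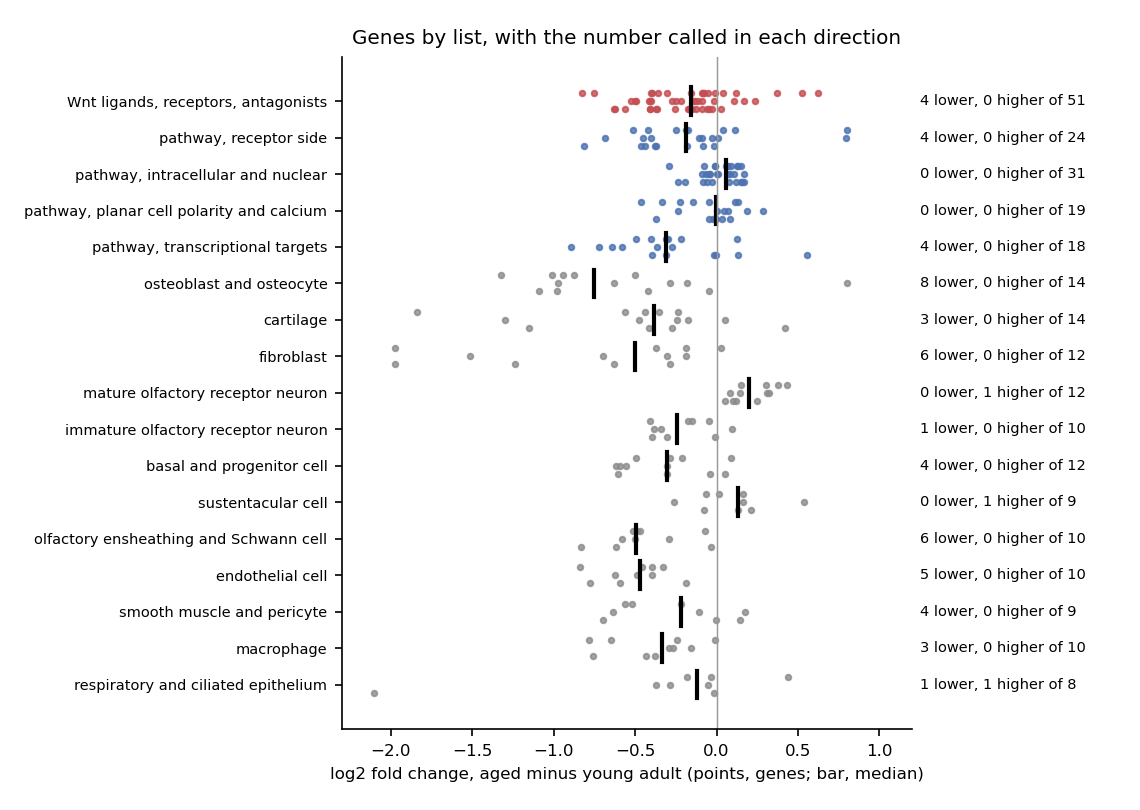
Log2 fold change, aged minus young adult (x axis), of every gene (points) in the set of 51, in 4 further pathway lists (blue) and in 12 lists of cell type markers (gray), with the median of each list as a bar and the number called in each direction at the right. The receptor-side and target lists have medians of -0.19 and -0.31, the intracellular list 0.05, and the mature neuron list lies above 0 throughout.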

How the data were processed

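Septal mucosa RNA was hybridized to Agilent one-color arrays, 2 per age. The authors scanned them, and deposited for each spot the intensity (median pixels), the local background and a processed intensity from Feature Extraction 11.0.1.1, with no normalization between arrays; their own normalization is given as limma under R 3.2.1, with the background method not given in the sources used here. Here the background was corrected with normexp (offset 0, limma 3.58.1, R 4.3.3) on every spot. Controls and the 88 to 118 spots per array marked as outliers were dropped, repeated spots were averaged, arrays were quantile normalized, and a gene's log2 value was the mean of its probes. RefSeq GRCm38.p6 gave symbols for 32994 of 56605 probes. Ages were compared with lmFit and eBayes on all 4 arrays, with Benjamini-Hochberg adjustment over 45604 genes; residual degrees of freedom were 2 and prior 1.38. The fit was tested on simulated data. The number of arrays limits the precision, and so does signal over background. In the text of the Results, genes dim on every array of an age are given no fold, except *Rspo2*. Its ratio takes, on each aged array, the higher of its own signal and the lowest signal well above background. The figures and the section on dependence on the processing also hold values of such dim genes.

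The members, the pathway and marker lists and the tests were chosen with earlier results of these data known. Genes named by rule were those called, the gene with the highest mean intensity and the one with the largest log2 fold change in each role among those well above background on both arrays of an age, *Axin2*, *Lef1*, *Lgr5*, and the called genes of the pathway lists. All others were named after their values were seen. The alternatives were other background corrections, scalings, filters, probe summaries and spread estimates, a replicate block, the shared slide alone, and each array left out. The deposited series table held the same processed intensity (tolerance 1e-06) at each of 62976 spots per array, and was not a separate source.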

Additional observations from a re-analysis of the deposited data

How the results depend on the processing

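As reported, 4 members were called lower and 0 higher. Lower and higher counts became 8 and 1 with a normexp offset of 16 (1691 and 1298 over all genes), 14 and 1 with an offset of 50 (2475 and 2107), 12 and 1 with no background correction (2239 and 1788), 13 and 1 with the processed intensity quantile normalized (2343 and 2029), 7 and 1 with cyclic loess (1378 and 954), 7 and 1 with the brightest probe per gene (1411 and 1004), 8 and 1 with probes averaged on the linear scale (1599 and 1134), 15 and 2 with dim probes left out (3706 and 3445 of 29495 genes, 40 members tested), and 16 and 2 with an intensity trend in eBayes (3518 and 3612 over all genes). *Lgr5* was the higher gene in each, joined by *Sfrp5* with dim probes left out and with the trend. Of members outside the 4 reported, *Sfrp2* was called lower most often, in 9 of 18 recomputations, and *Sfrp4* and *Wnt5b* in 8 each. Scaling to the 75th percentile left 2 lower (*Rspo2* and *Wif1*), the processed intensity so scaled had 3 (*Wif1*, *Wnt5a* and *Wnt2b*), and the study's limits on level and fold left 1. At FDR below 0.05 there were 0, and 0 also of all genes. *Wif1*, *Wnt5a* and *Rspo1* had a log2 fold change below 0 in all 18 recomputations, between -0.71 and -0.55, -0.63 and -0.41, and -0.44 and -0.37; *Rspo2* lay between -1.435 and -0.3201 in 17. *Axin2* was called lower (-0.33) with the processed intensity quantile normalized, and in no other of the 18 recomputations. With each array left out in turn, 0 members and 0 of all genes were called in each case, members lower at P below 0.05 were 4 to 10, and the median over members was -0.2669 to -0.1504. The median over members was -0.3151 on the shared slide alone. There *Lrp5* (0.01907), *Wnt1* (0.03976), *Wnt7a* (0.2308) and *Wnt8b* (-0.288), all uncalled, had signs opposite to those over all 4 arrays. The replicate numbers are not stated to pair the pools, and deviations of equally numbered arrays correlated at -0.0779 over 45604 genes; with the replicate block 0 members were called lower (14 at P below 0.05) and 0 of all genes. Slide as a random block could not be fitted, since limma returned no correlation, and scan date was not run as a block because all 4 arrays were scanned on 1 day. Log2 fold changes of these uncalled members turned sign, the cause not being tested: with the processed intensity quantile normalized, *Dkk4* 0.03875, *Fzd8* -0.05453, *Wnt1* 0.02572, *Wnt8b* -0.4084 and *Wnt9b* 0.1109; with it scaled to the 75th percentile, *Dkk4* 0.5893, *Fzd8* -0.04526, *Wnt1* 0.02968, *Wnt7a* 0.02363 and *Wnt9b* 0.03803; *Wnt7a* 0.006208 with 75th percentile scaling and 0.007115 with cyclic loess; *Wnt9b* 0.01661 with no background correction; and *Frzb* 0.01706 with the brightest probe. Leaving out 1 array gave ranges across 0 for *Dkk4* (-0.258 to 0.1018), *Fzd4* (-0.168 to 0.107), *Fzd5* (-0.3499 to 0.04364), *Fzd7* (-0.09975 to 0.003227), *Fzd8* (-0.01379 to 0.09286), *Lgr4* (-0.1512 to 0.03004), *Lrp5* (-0.2415 to 0.06432), *Wnt1* (-0.1124 to 0.0965), *Wnt2* (-0.5277 to 0.0287), *Wnt3a* (-0.5175 to 0.1866), *Wnt7a* (-0.3039 to 0.2649), *Wnt7b* (-0.003985 to 0.05537), *Wnt8b* (-0.2817 to 0.4994) and *Wnt9b* (-0.251 to 0.1345).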
